A study of Mus musculus with 12 samples.

Results

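A set of 36 genes of glucose use and of the response to low oxygen was followed through the conversion of mouse embryonic fibroblasts toward motor neurons. The genes were chosen by name, with earlier results of these data known. They are 2 glucose transporters, 9 enzymes of upper and 6 of lower glycolysis and 2 regulators of fructose-2,6-bisphosphate. With them are 5 genes of lactate and pyruvate handling, 4 of the pentose phosphate pathway and 8 genes induced by hypoxia. All 36 were found among the 23077 genes of the table, and all 36 passed the filter on low values. The fibroblasts are primary cells carrying the Hb9::GFP reporter, and every group was infected with a retrovirus for the conversion cassette Ngn2-2A-Isl1-2A-Lhx3, abbreviated NIL. The group called NIL received that cassette alone (3 libraries). SDD cells also received SNAP-p53DD, a dominant-negative p53 fragment fused to a SNAP tag (3 libraries). SDDIR cells received SDD-IRES-HRAS(G12V), in which an internal ribosome entry site puts the oncogenic HRAS second (2 libraries), and RISDD cells received HRAS(G12V)-IRES-SDD, with HRAS first (3 libraries). All cells went into N3 medium on day 3 after infection and were collected on day 4. RepSox, an inhibitor of the TGF-beta type I receptor, was in the medium of every group but NIL, and the SNAP-carrying groups were sorted for the tag while NIL cells were sorted only as live single cells. The effects of p53DD, of RepSox, of a second virus and of the SNAP stain and sort cannot be told apart in SDD against NIL. In RISDD against SDD, p53DD also moves behind the ribosome entry site, and that move cannot be told apart from the added HRAS. RNA came from 50k sorted cells per sample. The labels do not tie replicates to separate cultures, and each p-value reflects just the spread among the libraries, which may be technical.

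Glycolysis breaks glucose down to pyruvate in the cytosol. Hexokinase and phosphofructokinase are its main points of control, and lactate dehydrogenase turns pyruvate into lactate, which leaves the cell through monocarboxylate transporters. The pentose phosphate pathway branches off at glucose-6-phosphate and makes NADPH and ribose-5-phosphate, the sugar of nucleotides. Many genes of both pathways are targets of hypoxia-inducible factor (HIF) and of MYC, and oncogenic RAS is a classical inducer of glucose uptake in fibroblasts. Fibroblasts that turn into neurons are known to shift from glycolysis toward mitochondrial respiration. In bulk RNA, fewer cells of a type and less RNA per cell cannot be told apart.

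The libraries held 14872639 to 29815073 reads, recovered from the scaled values. Trp53 signal, which includes p53DD, was 2873 to 3674 in NIL and 29277 to 46185 in the other groups, and the mouse Hras row read 830 to 2342 in all libraries, so it does not check the HRAS label. Library NIL C stood apart from NIL A and NIL B. Mitochondrially encoded genes took 0.537% of its signal against 3.62% and 4.00%. In it, 27 of the 36 genes were higher than in the other NIL libraries, by a median of 0.65 on the log2 scale. The cassette genes were also highest in NIL C. Neurog2, the gene of Ngn2, read 59695, 58398 and 167282 in NIL A, B and C. Isl1 read 106246, 112049 and 163542 there, and Lhx3 100451, 102271 and 258391. In the other groups these genes read 39669 to 79075, 74614 to 141762 and 70972 to 136750. Summed signal of 12 fibroblast markers was 704465 to 831351 in SDD, 261283 to 287167 in SDDIR and 196849 to 212710 in RISDD, with none of the 12 at 0. Summed signal of 9 epithelial markers ran from 63.9 to 72.2 in SDD, from 2432 to 3772 in SDDIR and from 8744 to 12803 in RISDD, and 8 motor neuron markers ran from 4781 to 14392, from 378 to 501 and from 827 to 1015. The sum of 12 general neuron markers did not follow the motor neuron list: it was 8304 to 15427 in SDD, 6645 to 6884 in SDDIR and 14266 to 15639 in RISDD. The single genes were mixed. In SDDIR against SDD, 9 of the 11 tested had a negative change, with a median log2 change of -0.45. In RISDD against SDD, 7 of 11 were negative, with a median of -0.68. There, 4 were called higher and 6 lower (calls as defined below), beside 20.0% and 22.6% of all tested genes. Muscle markers (11 genes) summed to 1111 to 2434 in SDD, 4289 to 5382 in SDDIR and 5886 to 6141 in RISDD. In the same order, 10 endothelial markers summed to 239 to 277, 409 to 433 and 725 to 814. In every SDD library, 4 epithelial, 1 motor neuron, 1 muscle and 1 endothelial marker were at 0. In both SDDIR libraries it was 1, 2, 4 and 3 of these lists, and in every RISDD library 1, 1, 1 and 2. The filter on low values kept 7 epithelial, 5 motor neuron, 4 muscle and 5 endothelial markers. In SDDIR against SDD, 2 epithelial, 0 motor neuron, 1 muscle and 1 endothelial marker were called higher, and 0, 3, 0 and 0 lower. In RISDD against SDD, 7, 1, 2 and 3 were called higher and 0, 4, 0 and 0 lower. Of 12 fibroblast markers, 1 was higher in each of these comparisons, and 10 and 11 were lower. Of all tested genes, 8.66% were higher and 13.9% lower in SDDIR, and 20.0% and 22.6% in RISDD. NIL and SDD differed in several lists: NIL had 4184 to 15988 for 13 macrophage markers against 797 to 1977 in SDD, 915 to 1021 for the epithelial, 297 to 515 against 82.9 to 160 for 9 Schwann and neural crest markers, 3108 to 5659 for the neuron and 959213 to 1397637 for the fibroblast markers. In SDD against NIL, 0 macrophage, 0 epithelial, 0 Schwann and neural crest, 6 neuron and 1 fibroblast marker were called higher. In the same order, 3, 4, 4, 0 and 1 were called lower, beside 9.32% higher and 8.26% lower of all tested genes. The part of these shifts in the results below was not tested.

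With HRAS(G12V) added to p53DD, glucose transporters, transketolase, the prolyl hydroxylase Egln3 and Vegfa rose 1.80-fold to 4.45-fold. Between glucose-6-phosphate and lactate the calls were mixed: Pfkp, Gapdh and Pgk1 were called higher in both HRAS groups and Aldoa in RISDD, and Pfkm and Ldhb were called lower in RISDD. A gene was called changed when its adjusted p was under 0.05 (limma on log2(signal + 1), Benjamini-Hochberg over 14207 genes), and folds are on that scale. In SDDIR against SDD, 13 of the 36 genes were called higher and 0 lower, where 8.66% of all tested genes were higher and 13.9% lower. The other 23 were not called. With quantile scaling of the libraries, 14 of the 36 were higher and 0 lower, and over all genes 1718 were higher and 1790 lower in place of 1230 and 1969. In RISDD against SDD, 17 genes were called higher and 4 lower, against 20.0% and 22.6% of all tested genes. The median change of the 36 genes was 0.51 in SDDIR and 0.62 in RISDD, against 0.012 and 0.016 over all tested genes, and both comparisons share the SDD libraries.

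Most of the 36 genes lay lower in SDD than in NIL: 33 of 36 had a negative change. In this comparison, 1 gene was called higher and 6 lower, against 9.32% and 8.26% of all tested genes, with a median of -0.39 over the 36 genes and 0.053 over all tested genes. In RISDD against SDDIR, 0 of the 36 genes were called higher and 3 lower, against 4.64% and 5.05% of all tested genes. Those 3 calls did not reverse under any alternative, but some alternatives called further genes. In a fit of only the 2 groups, 10 genes were higher and 6 lower, beside 2667 and 2256 of all tested genes. With array weights it was 8 and 6, beside 2718 and 2628, and without NIL C 6 and 5, beside 2118 and 2068. The main fit called 659 and 718 over all tested genes. The counts moved with single libraries. Without NIL C, 11 genes changed in SDD against NIL, 23 in SDDIR against SDD and 11 in RISDD against SDDIR, in place of 7, 13 and 3. Over all tested genes, 4114, 6336 and 4186 were called without NIL C, in place of 2498, 3199 and 1377. In SDDIR against SDD, 7 genes were higher without SDD A or B, beside 824 and 944 of all tested genes in place of 1230. Without SDDIR A or SDDIR B, 1 SDDIR library was left, and the median change of the 36 genes was 0.51 and 0.47. Over all tested genes that median was 0.011 in both fits. The 23 without NIL C include Ankrd37 as the 1 lower gene. Without SDD A, 13 in place of 21 were called in RISDD against SDD, beside 4845 in place of 6046 over all tested genes. In SDD against NIL the count was 2 without SDD A or C, beside 1433 and 1226 over all tested genes in place of 2498. It was 3 without SDD B, beside 1517, and 3 without any single RISDD library, beside 1893 to 1957. In RISDD against SDDIR it was 1 without SDD B, SDD C or any single RISDD library, beside 571 to 1056 in place of 1377.

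**Figure D1:**
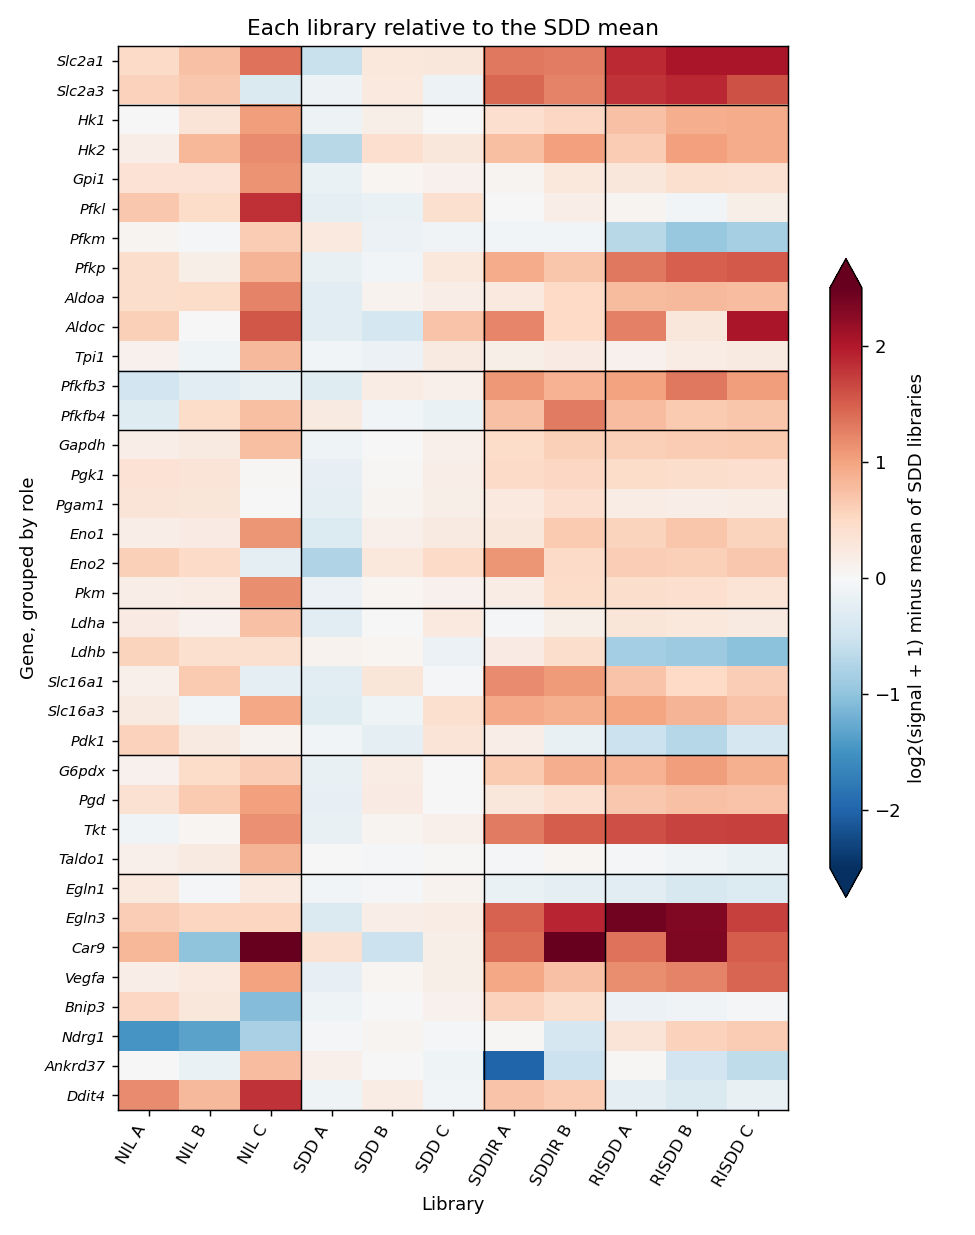
Value of each of the 36 genes (rows, grouped by role with black lines) in each of the 11 libraries (columns, grouped by condition), as log2(signal + 1) minus the mean of the 3 SDD libraries. Red is above and blue below that mean. Slc2a1, Tkt and Egln3 are red in all 5 HRAS libraries, Ldhb is bluest in the 3 RISDD libraries, and NIL C is redder than NIL A and NIL B over most rows.

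**Figure D2:**
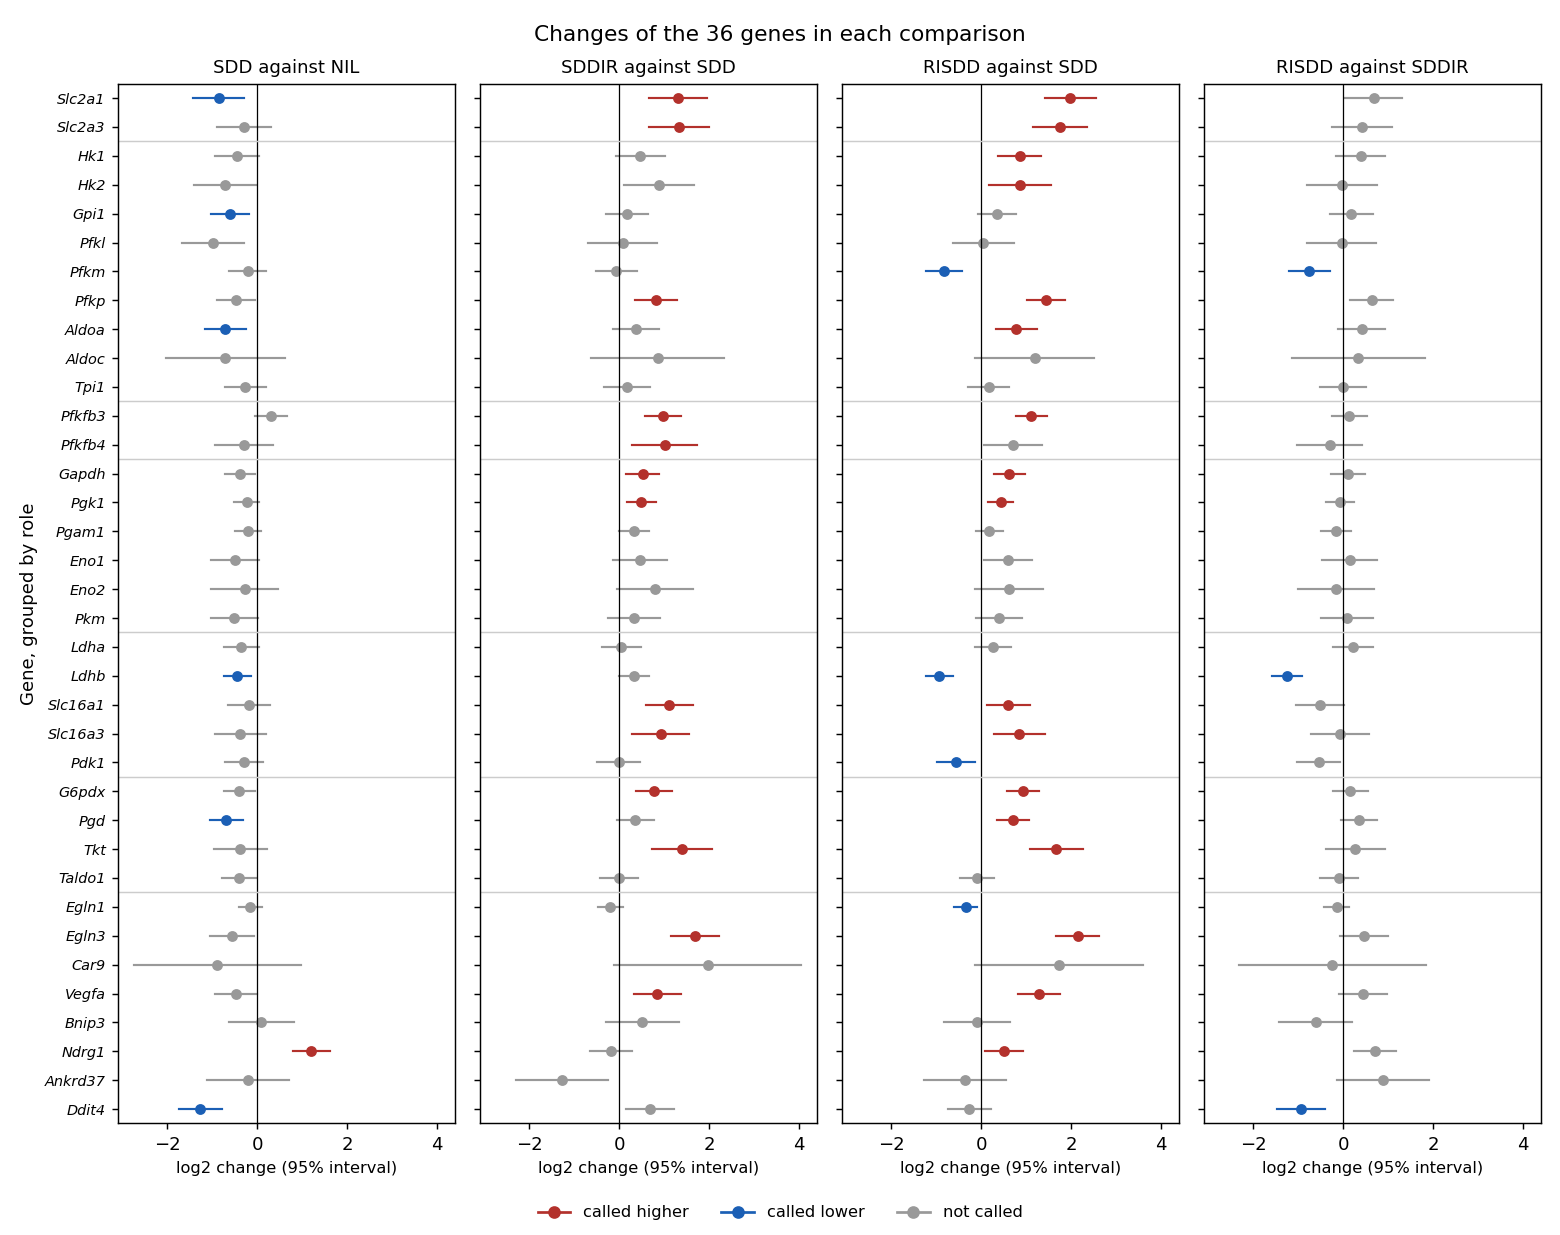
Change of each of the 36 genes (rows, grouped by role) in the 4 comparisons, as the log2 change with its 95% interval from limma. Red points were called higher, blue points lower and grey points were not called; the SDDIR and RISDD panels show the 13 and 17 genes called higher, and the 4 called lower in RISDD.

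HIF binds a short core that is read as ACGTG or GCGTG, and MYC and related factors bind the E-box CACGTG, which itself contains ACGTG. These letters were searched on both strands in the 250 bases before each RefSeq start (GRCm38.p6, an older build than that of the deposited values). At least 1 promoter was held for 34 of the 36 genes, 49 promoters in all. ACGTG or GCGTG stood in 39 of the 49 (79.6%), against 38.6% of 32851 promoters of all genes in the reference table. ACGTG alone stood in 42.9% against 16.6%, GCGTG in 57.1% against 28.2%, and CACGTG in 10.2% against 6.02%. The 49 promoters also had more G and C, a median of 60.4% against 52.4%, and a median of 14 CG dinucleotides against 6, and every HIF core letter string contains a CG; the part of base composition in the difference was not tested. A match is a stretch of letters and not a measured binding site. The promoters of 4 genes that were higher in both HRAS groups are shown, the 250 bases before the start on the gene's strand, with matches on either strand in capitals:
Slc2a1 (chr4:119108495-119108744, plus strand): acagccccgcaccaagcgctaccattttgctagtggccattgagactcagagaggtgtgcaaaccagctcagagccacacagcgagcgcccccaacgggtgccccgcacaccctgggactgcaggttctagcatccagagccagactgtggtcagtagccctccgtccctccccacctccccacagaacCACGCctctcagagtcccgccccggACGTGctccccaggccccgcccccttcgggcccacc
Tkt (chr14:30548881-30549130, plus strand): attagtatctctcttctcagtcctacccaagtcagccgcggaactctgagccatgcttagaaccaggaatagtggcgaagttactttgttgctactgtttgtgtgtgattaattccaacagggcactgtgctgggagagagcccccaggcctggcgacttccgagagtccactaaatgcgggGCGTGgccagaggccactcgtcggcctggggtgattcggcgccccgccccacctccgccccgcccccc
Egln3 (chr12:54203875-54204124, minus strand): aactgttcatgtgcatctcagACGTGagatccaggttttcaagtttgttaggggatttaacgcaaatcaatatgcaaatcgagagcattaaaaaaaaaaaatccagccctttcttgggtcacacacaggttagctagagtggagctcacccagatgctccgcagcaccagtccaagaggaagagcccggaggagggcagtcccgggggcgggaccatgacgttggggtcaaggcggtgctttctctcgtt
Slc16a1 (chr3:104638414-104638663, plus strand): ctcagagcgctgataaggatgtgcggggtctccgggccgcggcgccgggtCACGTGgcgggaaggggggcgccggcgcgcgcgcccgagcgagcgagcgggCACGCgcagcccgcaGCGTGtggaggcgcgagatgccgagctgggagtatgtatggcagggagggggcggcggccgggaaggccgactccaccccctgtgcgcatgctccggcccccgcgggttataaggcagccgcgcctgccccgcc

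The promoter of Slc2a1 holds 1 ACGTG and 1 GCGTG, the second read on the opposite strand, and that of Tkt holds 1 GCGTG. The Egln3 window holds 1 ACGTG far from the start. Slc16a1 is the 1 of the 4 with an E-box, and its window also holds 2 GCGTG matches. The 4 are examples, and matches were not limited to genes called higher. Ldha, called in no comparison, has 5 ACGTG matches in 1 of its 2 promoters. Vegfa, called higher in both HRAS groups, has 0 matches in 1 of its 2 promoters. Whether matches go with calls was not tested.

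Both glucose transporters rose with HRAS. Slc2a1 encodes GLUT1, the main transporter of proliferating cells, and Slc2a3 encodes GLUT3, the high-affinity transporter of neurons. Slc2a1 signal was 1524, 1815 and 2813 in NIL A, B and C, 741, 1318 and 1335 in SDD A, B and C, 2738 and 2667 in SDDIR A and B, and 3989, 4493 and 4528 in RISDD A, B and C. Every SDDIR library was above every SDD library and every RISDD library above every SDDIR library, with NIL C slightly above SDDIR. Slc2a1 rose 2.47-fold in SDDIR (log2 1.31 ± 0.29 SE, adjusted p = 0.00847, limma) and 3.96-fold in RISDD (log2 1.99 ± 0.26, adjusted p = 1.37e-04, limma). RISDD exceeded SDDIR by 0.68 ± 0.29, which was not called (adjusted p = 0.178, limma). SDD was below NIL by 0.86 (adjusted p = 0.0440, limma), a call that 13 of 22 alternatives ended, among them leaving out any library but NIL A (adjusted p = 0.0531 to 0.140).

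Slc2a3 was lower in signal throughout. It read 118, 126 and 61.1 in NIL, 72.2, 93.8 and 71.9 in SDD, 213 and 186 in SDDIR, and 278, 293 and 238 in RISDD. The HRAS libraries lay above all libraries without HRAS, and here NIL C was the lowest of all. Slc2a3 rose 2.52-fold in SDDIR (log2 1.33 ± 0.30 SE, adjusted p = 0.00970, limma) and 3.39-fold in RISDD (log2 1.76 ± 0.27, adjusted p = 4.09e-04, limma). The SDDIR calls of both transporters were lost when either SDDIR library was left out (adjusted p = 0.0583 to 0.0659 for Slc2a1 and 0.0505 to 0.0869 for Slc2a3). Their RISDD calls were kept under all 22 alternatives. Per kilobase of transcript, mean Slc2a1 signal was 347 in SDD and 1330 in RISDD, against 20.0 and 68.2 for Slc2a3, so GLUT1 remained the more abundant transcript.

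**Figure D3:**
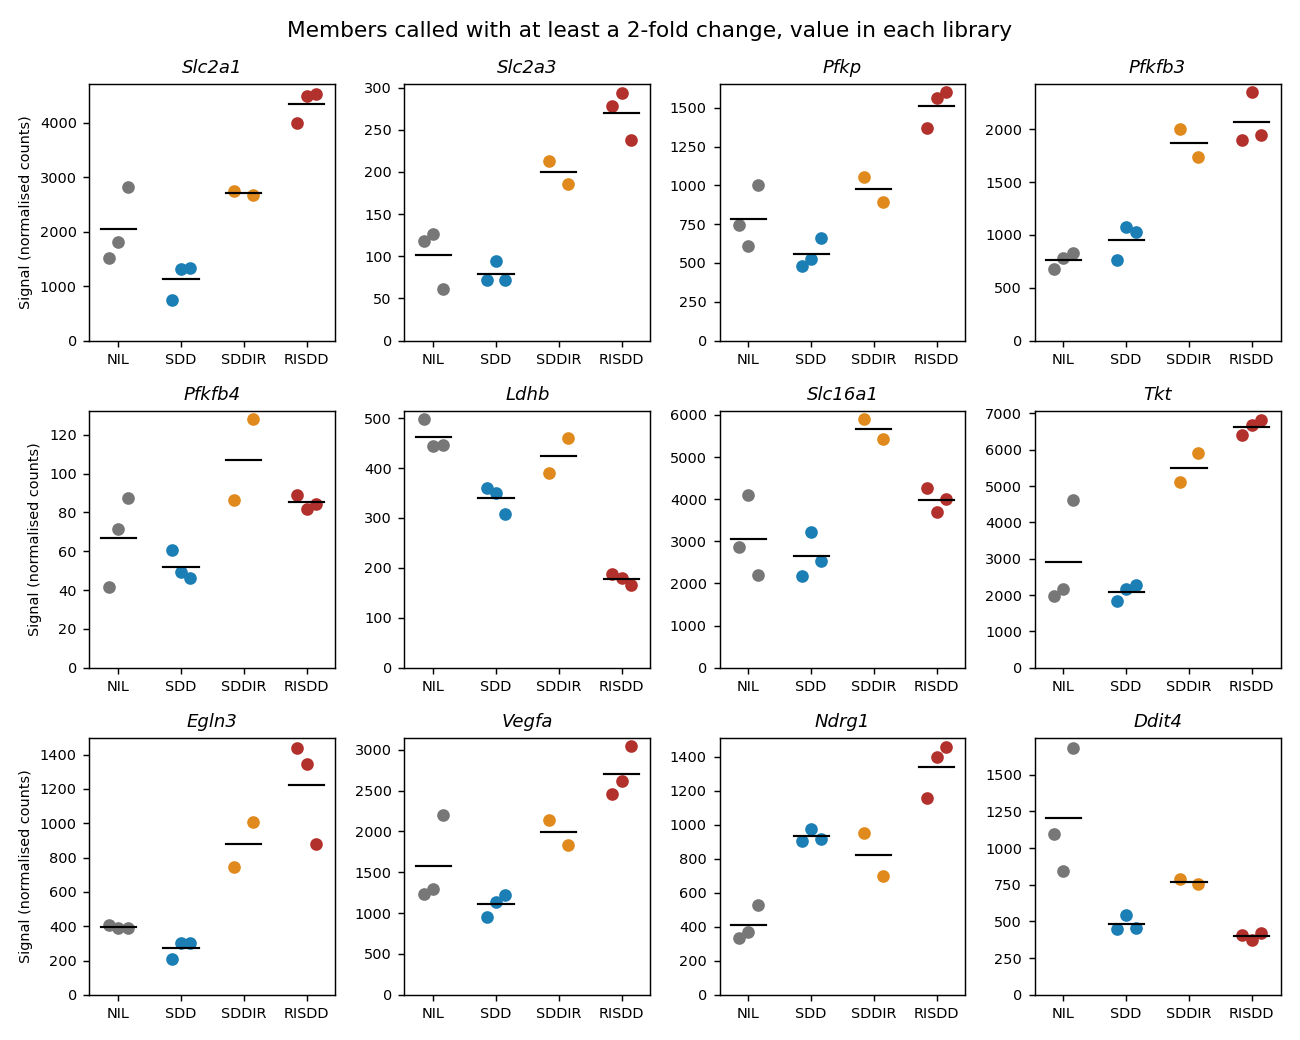
Signal (scaled read counts, linear axis from 0) of the 12 genes whose call came with a log2 change of at least 1 and a mean of at least 100, in each library. Points are libraries and black lines are group means; Slc2a1, Slc2a3, Pfkp, Pfkfb3, Tkt and Egln3 have their highest means in SDDIR and RISDD, and Ldhb stands lowest in RISDD (165 to 187).

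The upper steps of glycolysis changed unevenly, and the 3 phosphofructokinase genes moved apart. Of 9 genes, 1 was called higher in SDDIR (Pfkp), and 4 were called higher and 1 lower in RISDD. Over all tested genes, 8.66% were higher in SDDIR, and 20.0% were higher and 22.6% lower in RISDD. Pfkp, the platelet-type phosphofructokinase, read 746, 612 and 1001 in NIL, 483, 526 and 663 in SDD, 1055 and 894 in SDDIR, and 1370, 1560 and 1600 in RISDD. SDD, SDDIR and RISDD did not overlap. Pfkp rose 1.76-fold in SDDIR (log2 0.81 ± 0.21 SE, adjusted p = 0.0196, limma) and 2.73-fold in RISDD (log2 1.45 ± 0.19, adjusted p = 1.502e-04, limma). The SDDIR call was lost without SDD A, SDD B or either SDDIR library (adjusted p = 0.0597 to 0.161). The 3' end of Pfkp overlaps that of Pitrm1 on the other strand, whose signal was 2413 to 2950 in NIL, 2811 to 4230 in SDD and 3452 to 4147 in the HRAS groups; the sources used here do not say whether counting used the strand.

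Pfkm, the muscle-type enzyme, went the other way. It read 894, 823 and 1320 in NIL, 1011, 772 and 799 in SDD, 811 and 817 in SDDIR, and 524, 445 and 481 in RISDD. Only the RISDD libraries stood apart, below all others. Pfkm fell by 0.82 ± 0.18 on the log2 scale in RISDD against SDD (adjusted p = 0.00440, limma) and by 0.75 ± 0.21 against SDDIR (adjusted p = 0.0456, limma). The call against SDDIR was lost when any library but NIL B, NIL C or SDD A was left out (adjusted p = 0.0536 to 0.220). Pfkl, the liver-type enzyme, differed by 0.08 ± 0.35 in SDDIR and 0.05 ± 0.31 in RISDD, and neither was called. Its NIL libraries read 2500, 2157 and 5549, above the 1336 to 2066 of SDD.

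Hexokinase is the entry step. Hk1, the widely expressed form, rose 1.81-fold in RISDD (log2 0.85 ± 0.22, adjusted p = 0.00967, limma) and was 1.38-fold above SDD in SDDIR without a call (adjusted p = 0.219). Hk2, the form most often linked to growth and HIF, was called in RISDD at 1.82-fold (adjusted p = 0.0470, limma), with 628, 824 and 763 in RISDD against 248, 539 and 487 in SDD. That call was lost without any 1 of 8 libraries, all but NIL A, NIL C and SDD B (adjusted p = 0.0529 to 0.179). Aldoa, the main aldolase, rose 1.73-fold in RISDD (adjusted p = 0.0109, limma; 0.0511 without SDD A) and was 1.63-fold lower in SDD than in NIL (adjusted p = 0.0402, limma). Gpi1, the isomerase after hexokinase, was called lower in SDD than in NIL, 1.53-fold (adjusted p = 0.0495, limma), and in no other comparison. The SDD calls of Aldoa and Gpi1 were each lost without any 1 library outside NIL (adjusted p = 0.0591 to 0.142 and 0.0718 to 0.154). In NIL the libraries A, B and C read 14388, 14628 and 25142 for Aldoa and 8468, 8477 and 14357 for Gpi1, so NIL C was far above its group. Tpi1 and Aldoc were called in no comparison, and Aldoc read only 3.87 to 26.1.

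The regulators of fructose-2,6-bisphosphate, the strongest activator of phosphofructokinase, were called higher in both HRAS groups (Pfkfb3) or in SDDIR (Pfkfb4). Pfkfb3, the isoform whose kinase activity most outweighs its phosphatase activity, read 676, 779 and 831 in NIL, 764, 1074 and 1028 in SDD, 2000 and 1739 in SDDIR, and 1898, 2350 and 1951 in RISDD. All 5 HRAS libraries were above all 6 others, and the HRAS groups overlapped each other. Pfkfb3 rose 1.97-fold in SDDIR (log2 0.98 ± 0.18 SE, adjusted p = 0.00311, limma) and 2.17-fold in RISDD (log2 1.12 ± 0.16, adjusted p = 2.56e-04, limma), and both calls were kept under all 22 alternatives. RISDD minus SDDIR was 0.14 ± 0.18. Pfkfb4 was near the limit of what could be called. It read 41.5, 71.3 and 87.4 in NIL, 60.9, 49.3 and 46.1 in SDD, 86.4 and 128 in SDDIR, and 89.0, 81.9 and 84.6 in RISDD. It rose 2.01-fold in SDDIR (adjusted p = 0.0492, limma), a call lost without any 1 library but NIL A and NIL C (adjusted p = 0.0544 to 0.333), and the 1.63-fold in RISDD was not called (adjusted p = 0.0754).

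In the lower steps, 2 of 6 genes were called higher in each HRAS group, Gapdh and Pgk1, by less than the transporters. Over all tested genes, 8.66% were called higher in SDDIR and 20.0% in RISDD. Gapdh, the first step after the trioses, rose 1.44-fold in SDDIR (adjusted p = 0.0499, limma) and 1.55-fold in RISDD (adjusted p = 0.00662, limma). Pgk1, the first ATP-making step, rose 1.41-fold in SDDIR (adjusted p = 0.0285, limma) and 1.35-fold in RISDD (adjusted p = 0.0171, limma). The Gapdh call in SDDIR was lost without any 1 library outside NIL (adjusted p = 0.0731 to 0.259). Pgk1 lost its call without SDD A, SDD B or either SDDIR library in SDDIR (adjusted p = 0.0636 to 0.151), and without SDD A, RISDD A or RISDD B in RISDD (adjusted p = 0.0510 to 0.0679). Pgam1, Eno1, Eno2 and Pkm were called in no comparison. Eno1, enolase, was 1.52-fold above SDD in RISDD (adjusted p = 0.0696), and Pkm, pyruvate kinase, 1.32-fold (adjusted p = 0.199).

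Some of these genes have near-identical copies. At 95% identity over at least 300 bases, 77 other genes matched Gapdh, and those in the table carried 26.9% of Gapdh's own signal. The copy Gm10359 read 5878, 5366 and 19686 in NIL A, B and C and 4388 to 8338 in the other libraries. Copies of Pgk1 carried 11.0% and the copy of Pgam1 6.62%, and Pgam1-ps2 read 3981 in NIL C and 0 to 282 elsewhere. The values of Gapdh, Pgk1 and Pgam1 are uncertain to that extent, since reads may have been split between the copies. For Eno1, Pkm, Ldha and Ldhb the copies carried at most 0.102%.

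NIL C held the highest value of Pkm (88363, against 44043 and 44589 in NIL A and B) and of Eno1 (47380, against 24964 and 25546). The 17 glycolytic enzyme genes together took 1.29% of all signal in NIL C, 0.860% and 0.851% in NIL A and NIL B, 0.667% to 0.847% in SDD, 0.977% to 1.09% in SDDIR, and 1.04% to 1.05% in RISDD. The 5 HRAS libraries were above all libraries without HRAS but NIL C.

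**Figure D4:**
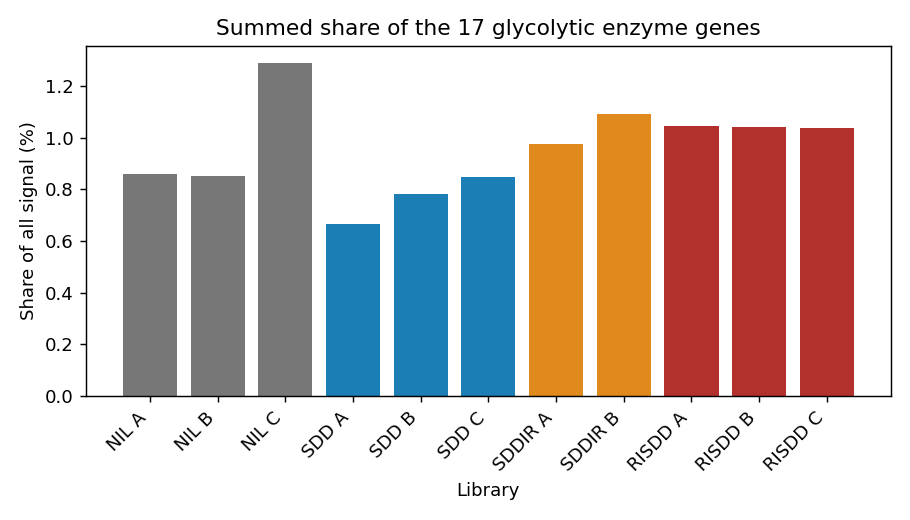
Share of all signal (%, bars from 0) taken by the 17 glycolytic enzyme genes in each of the 11 libraries, coloured by group. NIL C has the highest share (1.29%) and the SDD libraries the lowest (0.667% to 0.847%).

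Downstream of pyruvate, both lactate transporter transcripts rose in each HRAS group and the lactate dehydrogenase isozymes separated in RISDD. Slc16a1 encodes MCT1, which carries lactate in either direction. It read 2864, 4093 and 2207 in NIL, 2178, 3228 and 2529 in SDD, 5912 and 5431 in SDDIR, and 4262, 3696 and 4006 in RISDD. SDDIR was highest and did not overlap with RISDD. Slc16a1 rose 2.17-fold in SDDIR (log2 1.12 ± 0.24 SE, adjusted p = 0.00728, limma; 0.0682 without SDDIR A) and 1.53-fold in RISDD (adjusted p = 0.0415, limma). The RISDD call was lost without any 1 of 8 libraries, all but NIL B, NIL C and SDD B (adjusted p = 0.0536 to 0.154). RISDD minus SDDIR was -0.51 ± 0.24 and not called (adjusted p = 0.231). Slc16a3, the lactate exporter MCT4, rose 1.89-fold in SDDIR (adjusted p = 0.0425, limma) and 1.81-fold in RISDD (adjusted p = 0.0211, limma). Its SDDIR call was lost without any 1 library but NIL B, NIL C and SDD C (adjusted p = 0.0534 to 0.194), and its RISDD call without SDD A, SDD B, RISDD A or RISDD B (adjusted p = 0.0596 to 0.0888).

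Ldhb, the subunit that favours lactate oxidation, read 498, 445 and 446 in NIL, 361, 349 and 307 in SDD, 390 and 460 in SDDIR, and 187, 179 and 165 in RISDD. The RISDD libraries were well below all others. Ldhb fell by 0.93 ± 0.14 on the log2 scale in RISDD against SDD (1.91-fold, adjusted p = 2.89e-04, limma) and by 1.26 ± 0.15 against SDDIR (2.39-fold, adjusted p = 0.00116, limma). Both calls were kept under all 22 alternatives. It was also lower in SDD than in NIL (1.37-fold, adjusted p = 0.0444, limma), a call lost without any 1 library but NIL C (adjusted p = 0.0568 to 0.159). Ldha, the subunit that favours lactate formation, was called in no comparison, with 11534 to 14804 in the HRAS groups and 9960 to 14221 in SDD. The ratio of Ldha to Ldhb signal was 27.8 to 44.5 in NIL, 27.6 to 46.3 in SDD, 28.7 to 29.6 in SDDIR and 79.3 to 85.0 in RISDD. Per kilobase of transcript, mean Ldha signal was 8135 and mean Ldhb signal 136 in RISDD, against 7001 and 326 in SDDIR. Pdk1, the kinase that shuts pyruvate out of the mitochondrion by inhibiting pyruvate dehydrogenase and a known HIF target, fell by 0.56 ± 0.19 in RISDD against SDD (adjusted p = 0.0394, limma) and differed by -0.0094 in SDDIR. The Pdk1 call was lost without SDD A, SDD C or any 1 RISDD library (adjusted p = 0.0579 to 0.156).

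**Figure D5:**
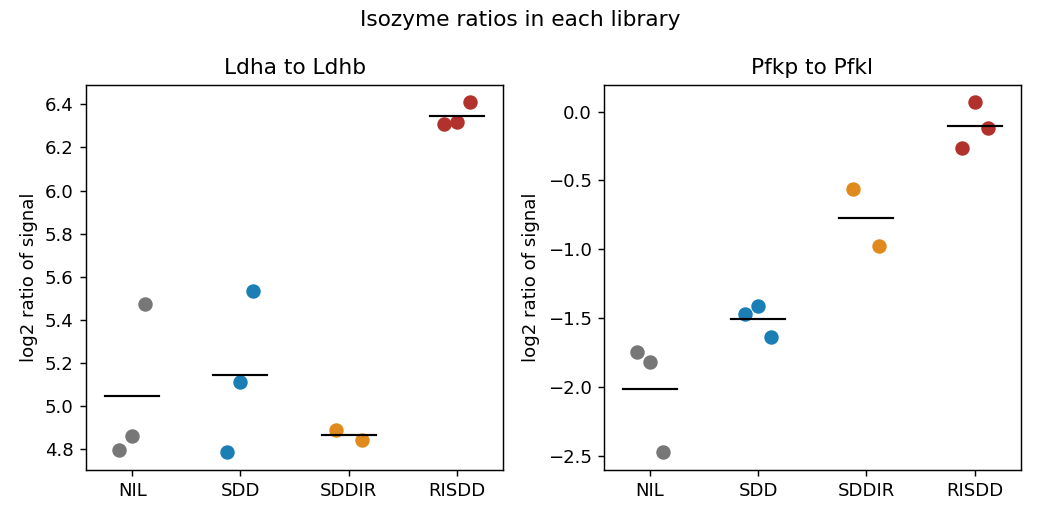
Log2 ratio of Ldha to Ldhb signal (left) and of Pfkp to Pfkl signal (right) in each library, with group means as black lines. Ldha to Ldhb is highest in the 3 RISDD libraries (6.31 to 6.41), and Pfkp to Pfkl is lowest in NIL and higher in SDD, SDDIR and RISDD in turn, with no overlap between the groups.

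The ratio of Pfkp to Pfkl signal was 0.180 to 0.299 in NIL, 0.321 to 0.377 in SDD, 0.508 to 0.676 in SDDIR and 0.833 to 1.05 in RISDD. It separated all 4 groups. Both genes had a lower mean in SDD than in NIL, 557 against 786 for Pfkp and 1599 against 3402 for Pfkl. Other pairs did not separate the HRAS groups from SDD: the ratio of Hk2 to Hk1 was 0.143 to 0.261 in SDD and 0.199 to 0.303 over SDDIR and RISDD. Signal ratios are not corrected for transcript length, which is the same in all groups.

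In the pentose phosphate pathway, transketolase and the first enzyme of the oxidative branch rose with HRAS, and transaldolase was not called. Tkt, which shuttles carbon between the pathway and glycolysis, read 1969, 2163 and 4619 in NIL, 1824, 2173 and 2272 in SDD, 5102 and 5905 in SDDIR, and 6394, 6692 and 6820 in RISDD. All HRAS libraries exceeded all others. Tkt rose 2.64-fold in SDDIR (log2 1.40 ± 0.30 SE, adjusted p = 0.00718, limma; 0.0704 without SDDIR B) and 3.19-fold in RISDD (log2 1.67 ± 0.27, adjusted p = 5.53e-04, limma). G6pdx, glucose-6-phosphate dehydrogenase, which commits glucose to the pathway, rose 1.71-fold in SDDIR (adjusted p = 0.0102, limma; 0.110 without SDDIR B) and 1.91-fold in RISDD (adjusted p = 8.13e-04, limma). Pgd, the other NADPH-making dehydrogenase, rose 1.63-fold in RISDD (adjusted p = 0.00563, limma) and was 1.28-fold above SDD in SDDIR without a call (adjusted p = 0.212). Pgd was 1.62-fold lower in SDD than in NIL (adjusted p = 0.0185, limma; 0.0621 to 0.0728 without SDD A or SDD C). Taldo1, transaldolase, differed by -0.0029 ± 0.19 in SDDIR and by -0.10 ± 0.17 in RISDD. The RISDD calls of Tkt, G6pdx and Pgd were kept under all 22 alternatives.

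The 8 hypoxia-induced genes did not move as one. Egln3 and Vegfa were called higher in both HRAS groups and Ndrg1 in RISDD, Egln1 was called lower in RISDD, and Car9, Bnip3 and Ankrd37 were called in no comparison. Egln3 encodes PHD3, an oxygen-dependent prolyl hydroxylase that marks HIF for degradation and is itself a HIF target. It read 409, 389 and 387 in NIL, 209, 302 and 305 in SDD, 748 and 1005 in SDDIR, and 1436, 1344 and 881 in RISDD. The HRAS libraries stood above all others, and SDDIR overlapped RISDD. Egln3 rose 3.23-fold in SDDIR (log2 1.69 ± 0.24 SE, adjusted p = 8.31e-04, limma) and 4.45-fold in RISDD (log2 2.15 ± 0.22, adjusted p = 2.47e-05, limma), the largest called changes of the 36 genes in each of these comparisons, and both were kept under all 22 alternatives. RISDD minus SDDIR was 0.46 ± 0.24 (adjusted p = 0.291).

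Vegfa, the vascular growth factor, read 1230, 1300 and 2202 in NIL, 958, 1140 and 1224 in SDD, 2141 and 1834 in SDDIR, and 2456, 2621 and 3039 in RISDD. The 3 groups with p53DD did not overlap. Vegfa rose 1.80-fold in SDDIR (log2 0.85 ± 0.24 SE, adjusted p = 0.0267, limma) and 2.44-fold in RISDD (log2 1.29 ± 0.21, adjusted p = 6.59e-04, limma). The SDDIR call was lost without SDD A, SDD B or either SDDIR library (adjusted p = 0.0596 to 0.189). Egln1, which encodes PHD2, the main HIF hydroxylase, fell by 0.34 ± 0.12 in RISDD against SDD (adjusted p = 0.0359, limma), a call lost without any 1 library outside NIL (adjusted p = 0.0510 to 0.126).

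Ndrg1, a stress-responsive gene, and Ddit4, which encodes the mTORC1 inhibitor REDD1, were the 2 genes with the largest changes in SDD against NIL, in opposite directions. Ndrg1 read 334, 369 and 531 in NIL, 903, 976 and 916 in SDD, 949 and 699 in SDDIR, and 1159, 1396 and 1453 in RISDD. NIL was lowest and RISDD highest. Ndrg1 rose 2.31-fold in SDD against NIL (log2 1.21 ± 0.19 SE, adjusted p = 0.00273, limma), differed by -0.19 ± 0.21 in SDDIR against SDD, and was called in RISDD against SDD at 1.43-fold (adjusted p = 0.0489, limma). The RISDD call was lost without any 1 library but NIL A and NIL C (adjusted p = 0.0506 to 0.152).

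Ddit4, a target of both p53 and HIF, read 1095, 844 and 1684 in NIL, 448, 544 and 458 in SDD, 791 and 752 in SDDIR, and 404, 375 and 421 in RISDD. SDDIR stood between NIL and the rest, and RISDD lay below SDD in every library. Ddit4 fell 2.40-fold in SDD against NIL (log2 -1.27 ± 0.22 SE, adjusted p = 0.00415, limma), was 1.60-fold above SDD in SDDIR without a call (adjusted p = 0.0692), and was 1.93-fold lower in RISDD than in SDDIR (adjusted p = 0.0342, limma). The last call was lost without SDD B, SDD C, or any 1 SDDIR or RISDD library (adjusted p = 0.0518 to 0.207). The Ndrg1 and Ddit4 calls of SDD against NIL were kept under all 22 alternatives. Bnip3, a mitophagy receptor, read 1086, 931 and 358 in NIL, where NIL C was lowest, and Car9 read 1.11 to 29.1 in all libraries.

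Of 13 tested genes of oxygen sensing, HIF subunits among them, 0 were called in SDD against NIL and 0 in SDDIR against SDD. Of all tested genes, 9.32% were higher and 8.26% lower in SDD against NIL, and 8.66% and 13.9% in SDDIR against SDD. In RISDD against SDD 1 of the 13 was called higher and 3 lower (7.69% and 23.1%, beside 20.0% and 22.6% of all tested genes). Hif1a differed by 0.23 ± 0.27 in SDDIR and -0.16 ± 0.24 in RISDD, without a call. In RISDD against SDD, Arnt, the partner of Hif1a, fell by 0.67 (adjusted p = 0.00106, limma) and its paralogue Arnt2 by 1.63 (adjusted p = 3.01e-04, limma). Vhl, the third gene called lower, fell by 0.57 (adjusted p = 0.00760, limma), and its call was not checked under the alternatives. Cited2, a competitor of HIF for its coactivator, rose by 0.62 (adjusted p = 0.0150, limma). Of 9 tested transcription factors of glycolytic genes, 1 was called higher and 1 lower in SDD against NIL, 0 and 1 in SDDIR, and 1 and 1 in RISDD (11.1% each, beside 20.0% and 22.6% of all tested genes). All of these calls were of Myc or Esrra. Myc itself read 1414, 1485 and 3088 in NIL, 2946, 4055 and 4367 in SDD, 1855 and 1635 in SDDIR, and 1659, 1841 and 1811 in RISDD. It was called higher in SDD than in NIL (adjusted p = 0.0298, limma). It fell 2.15-fold in SDDIR (adjusted p = 0.0244, limma) and 2.11-fold in RISDD (adjusted p = 0.00831, limma), opposite to the glucose transporters. Whether Myc bears on the transporters was not tested. Esrra, the nuclear receptor ERR-alpha, ran the other way. It read 608, 605 and 980 in NIL, 307, 306 and 260 in SDD, 485 and 407 in SDDIR, and 597, 622 and 730 in RISDD, so that all HRAS libraries were above all SDD libraries. Esrra fell 2.45-fold in SDD against NIL (adjusted p = 0.00228, limma) and rose 2.23-fold in RISDD against SDD (adjusted p = 7.97e-04, limma), and both calls were kept under all 22 alternatives. The SDD call of Myc was lost without NIL A, NIL B, SDD B or SDD C, its SDDIR call without SDD B, SDD C or either SDDIR library, and the RISDD call of Cited2 without SDD C or RISDD B.

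Of 46 tested other hypoxia-induced genes, 2 were called higher and 10 lower in SDD against NIL (4.35% and 21.7%, beside 9.32% and 8.26% of all tested genes). In RISDD against SDD, 9 and 11 were called (19.6% and 23.9%), shares near the 20.0% and 22.6% of all tested genes. In SDDIR against SDD 6 and 10 were called (13.0% and 21.7%, beside 8.66% and 13.9%), and in RISDD against SDDIR 5 and 2 (10.9% and 4.35%, beside 4.64% and 5.05%). The 4 medians, in the order SDD against NIL, SDDIR and RISDD against SDD, and RISDD against SDDIR, were -0.017, -0.093, 0.14 and 0.032. Adm, the vasodilator peptide adrenomedullin, fell by 2.62 on the log2 scale in SDDIR (adjusted p = 0.00101, limma) and by 2.54 in RISDD (adjusted p = 1.91e-04, limma). Tfrc, the transferrin receptor, read 307, 581 and 491 in SDD, 1325 and 1402 in SDDIR, and 2501, 2773 and 3045 in RISDD, and rose by 2.64 in RISDD (adjusted p = 7.70e-04, limma). Angptl4, a lipoprotein lipase inhibitor, read 1875, 1683 and 2933 in SDD, 412 and 364 in SDDIR, and 2523, 2746 and 1754 in RISDD, and was 2.57 higher in RISDD than in SDDIR (adjusted p = 5.85e-04, limma).

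Genes next to the 36 in metabolism were counted in the same way, beside 8.66% higher and 13.9% lower of all tested genes in SDDIR against SDD and 20.0% and 22.6% in RISDD against SDD. Of 16 tested other isozymes of glycolysis, 1 was called higher and 5 lower in SDDIR (6.25% and 31.2%), and 2 and 5 in RISDD (12.5% and 31.2%). Of 8 tested other pentose phosphate genes, 0 and 1 were called in SDDIR and 1 and 1 in RISDD, the lower one in both being H6pd, the enzyme that makes NADPH in the endoplasmic reticulum, at -1.13 and -1.57 (adjusted p = 0.00443 and 1.09e-04, limma). Of 12 tested genes of mitochondrial pyruvate entry, 2 and 2 were called in SDDIR (16.7% each) and 3 and 5 in RISDD (25% and 41.7%). Mpc1, a subunit of the mitochondrial pyruvate carrier, fell by 1.41 in RISDD (adjusted p = 4.82e-05, limma), Pdk2, a kinase that inhibits pyruvate dehydrogenase, fell 2.82-fold (adjusted p = 3.40e-04, limma), and Pdp1, the phosphatase that activates pyruvate dehydrogenase, rose by 1.71 (adjusted p = 7.10e-04, limma). Of 5 tested other genes of monocarboxylate transport, 1 and 1 were called in SDDIR and 2 and 2 in RISDD. Emb, the embigin chaperone of monocarboxylate transporters, read 845, 965 and 512 in SDD, 1976 and 1890 in SDDIR and 8294, 7605 and 6499 in RISDD, and rose by 3.31 in RISDD against SDD (adjusted p = 8.89e-05, limma).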

How the data were processed

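Polyadenylated RNA was made into directional libraries, per the labels' protocols. Trimming used Trim Galore 0.6.10 and quantification against GRCm39 used Salmon 1.10.3, per the submitters' processing notes. How genes were summed and libraries scaled was not given in the sources used here. Signal as deposited by the authors is the gene count divided by 1 constant per library, and whole reads were recovered in all 11 libraries (100% of values, tolerance 0.001). The SDDIR B heading stood on 2 identical columns and was used once. Which replicate it holds cannot be settled, 1 column was not used, and the third SDDIR sample was not analysed here.

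The filter kept 14207 genes (signal of 10 or more in 3 or more libraries). One limma fit (version 3.58.1, R 4.3.3) on log2(signal + 1) covered all 4 groups, with trend and robust moderation. The alternatives were 2 scalings, pseudocounts of 0.5 and 10, no filter, a minimum of 50, array weights, fits of 2 groups, a replicate block, edgeR 4.0.16 and DESeq2 1.42.0 on the recovered reads, and each library left out. The code was tested on simulated data. The 36 genes and all gene lists were chosen with earlier results of these data known. Genes called with an absolute log2 change of at least 1 and a mean of at least 100 are given in every library. Up to 3 genes per related list and comparison are named by size of change at that mean. Hif1a and Vhl were added after their values were seen. Related lists share some genes.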

Additional observations from a re-analysis of the deposited data

How the results depend on the processing

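No call of the 36 genes reversed under the 22 alternatives. The losses given with single genes above are mostly those to left-out libraries, and other settings also ended calls. In RISDD against SDD, Ndrg1 lost its call with upper-quartile or quantile scaling, no filter or edgeR. Slc16a1 lost it there with quantile scaling, no filter or edgeR, and Hk2 with no filter or edgeR. In SDDIR against SDD, Gapdh lost its call with a pseudocount of 0.5, no filter or edgeR. Of the 44 gene calls in the 4 comparisons, 18 were kept under every alternative, 13 of them in RISDD against SDD. Of the 44, 43 were kept with upper-quartile scaling, 38 with quantile scaling, 42 and 44 with pseudocounts of 0.5 and 10, 31 without a filter, 44 with a minimum of 50, 40 with array weights, 39 with only the 2 groups compared, 40 with edgeR, 44 with DESeq2, and 24 to 43 with a library left out. In SDD against NIL, 7 genes changed, but 3 without a filter, 3 with array weights, 2 in a fit of only the 2 groups, and 2 to 11 with a library left out. In SDDIR against SDD, 13 changed, but 26 with array weights and 4 to 23 with a library left out. In RISDD against SDD, 21 changed, and 13 to 26 with a library left out. In RISDD against SDDIR, 3 changed, but 14 with array weights, 16 in a fit of only the 2 groups, 5 with DESeq2 and 1 to 11 with a library left out. Calls over all genes moved as well. With array weights they were 6902 in SDDIR against SDD and 5346 in RISDD against SDDIR, in place of 3199 and 1377. A fit of only the 2 groups called 4923 in RISDD against SDDIR. In SDD against NIL, all-gene calls were 2227 without a filter, 2357 with array weights and 697 in a fit of only the 2 groups, in place of 2498. The cause was not tested. Over all genes, edgeR on the recovered reads called 2479, 3146, 6034 and 1344 genes in the 4 comparisons and DESeq2 3641, 4006, 6670 and 2258, against 2498, 3199, 6046 and 1377 with limma. Quantile scaling moved the median of all tested genes by under 0.1 in every comparison. Correlations of same-lettered deviations were weak and all positive, which does not settle whether replicate letters pair the samples. They were 0.216, 0.190 and 0.0516 for SDD and NIL, and 0.0603 and 0.112 for SDDIR and SDD. For RISDD and SDD they were 0.175, 0.133 and 0.0656, and for RISDD and SDDIR 2.25e-04 and 0.134. With a replicate block, 9, 13, 23 and 3 genes changed, and 42 of the 44 calls were kept. Over all tested genes, 2777, 3359, 6301 and 1440 were called with the block, in place of 2498, 3199, 6046 and 1377. Where a left-out library leaves SDDIR with 1, that sample is assumed to vary like the other groups. SDDIR rests on 2 libraries, and Car9 and Aldoc, read at under 30 in every library, had the widest intervals of the 36 genes.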

Other observations

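Of 18 tested glycogen genes, 3 were called higher and 3 lower in SDDIR against SDD (16.7% each, beside 8.66% and 13.9% of all tested genes). In RISDD against SDD, 5 and 6 were called (27.8% and 33.3%, beside 20.0% and 22.6%), and in SDD against NIL 1 and 2 (5.56% and 11.1%, beside 9.32% and 8.26%). Ppp1r3d, a subunit that targets protein phosphatase 1 to glycogen, averaged 336 in the SDD libraries, 114 in SDDIR and 16.1 in RISDD; it fell by 4.29 on the log2 scale in RISDD (adjusted p = 9.85e-07, limma). Phka1, a regulatory subunit of phosphorylase kinase, fell by 1.94 in RISDD (adjusted p = 4.82e-05, limma). Pgm2, a phosphomutase of the pentose and hexose phosphates, rose by 1.11 (adjusted p = 1.11e-04, limma).

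Of 4 tested gluconeogenesis genes, 1 was higher and 1 lower in SDDIR against SDD, and 1 and 2 in RISDD. The shares of all tested genes were those given above for these comparisons. Pcx, pyruvate carboxylase, read 651, 652 and 480 in SDD, 285 and 350 in SDDIR, and 95.2, 115 and 105 in RISDD. It fell by 2.48 in RISDD against SDD (adjusted p = 7.64e-06, limma) and by 1.58 against SDDIR (adjusted p = 0.00299, limma). Pck2, the mitochondrial PEP carboxykinase, fell by 1.17 in RISDD (adjusted p = 4.25e-04, limma). Of 4 tested genes of hexose sensing by MLX factors, 1 was higher and 1 lower in SDDIR, and 1 and 2 in RISDD. Txnip, which restrains glucose uptake, averaged 1168 in the SDD libraries, 507 in SDDIR and 578 in RISDD, and was called lower in both HRAS groups (adjusted p = 0.0128 and 0.00776, limma). The SDDIR call of Txnip was lost without either SDDIR library. Of 9 tested p53-linked metabolic genes, 0 were higher and 3 lower in SDD against NIL (33.3% lower, beside 8.26% of all tested genes). Sesn2, a stress-induced inhibitor of mTORC1, fell by 1.08 (adjusted p = 0.00433, limma) and Lpin1, a phosphatidate phosphatase, by 0.95 (adjusted p = 0.00147, limma). The calls of these genes not marked otherwise were kept under all 22 alternatives.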
